A study of Mus musculus with 14 samples.

Results

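The loci of Gfi1 and Gfi1b were examined in 11 lists of enriched regions from chromatin immunoprecipitation with sequencing (ChIP-seq). Members were chosen by position in build mm9: every region sharing at least 1 bp with chr5:108120001-108200000, the 80 kb window that holds Gfi1, or with chr2:28440001-28500000, the 60 kb window that holds Gfi1b. These were 27 of 201448 regions, 9 at Gfi1 and 18 at Gfi1b. The windows are wider than the genes: in RefSeq gene order Gfi1 lies between Rpap2 and Evi5, and Gfi1b between Gtf3c5 and Tsc1. No mm9 annotation was used here, so the part of the Gfi1 window that lies in Evi5 was kept, and exons, introns and starts were not placed within the regions.

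The tumour cells are Group 3 medulloblastoma cells that over-express Myc and lack p53 and p18, with genotype p53-/-;p18-/- in the cells labelled Cas9, the control, and p53-/-;p18-/- ;Ezh2-/- in the Ezh2 knockout. Each was profiled for H3K27me3, H3K27ac and H3K4me3. The neurospheres, floating cultures of neural cells, are all labelled p53-/-;p18-/-. Those labelled Cas9 and Suz12F2 were profiled with a Gfi1 antibody, and those labelled U6, Suz12F1 and Suz12F2 with a Cas9 antibody. The labels do not explain these names. The growth text describes retroviral infection of tumour cells, sorting for red and green fluorescence and transplantation into the cortex of CD-1 nu/nu mice, and does not say whether chromatin was taken before or after transplantation, or whether the knockout is 1 clone. With 1 library per group there is no replicate error, and no difference was tested. The deposited lists give no library totals, so depth is unknown and can differ between them.

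Gfi1 and Gfi1b are closely related zinc finger repressors. Each carries an amino-terminal SNAG domain that recruits the histone demethylase Lsd1 with its partner CoREST, and carboxy-terminal zinc fingers that read DNA with an AATC core. They are best known from blood, where Gfi1 acts in stem cells, lymphocytes and neutrophils and Gfi1b in erythroid cells and platelets, and they can repress their own and each other's genes. In human Group 3 medulloblastoma both genes are activated in some tumours by rearrangements that bring active enhancers next to them. Ezh2 is the methyltransferase of Polycomb repressive complex 2, which places H3K27me3, a mark of silenced developmental genes, and Suz12 is another subunit of that complex. H3K4me3 marks promoters and H3K27ac marks active promoters and enhancers. The series title ties loss of Ezh2 to higher Gfi1, so the loci were asked which marks were called with and without Ezh2.

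The sequences before the starts of both genes are shown because the Gfi1 antibody was used on chromatin of these loci and AATC is the core that the zinc fingers of Gfi1 read. They come from RefSeq in build GRCm38.p6, whose positions must not be set beside the mm9 positions used elsewhere, and each runs 5′ to 3′ on the minus strand over the 250 bases before the start. Capitals mark AATC or its reverse complement GATT. The Gfi1 sequence is chr5:107725806-107726055 and the Gfi1b sequence chr2:28621983-28622232.
Gfi1: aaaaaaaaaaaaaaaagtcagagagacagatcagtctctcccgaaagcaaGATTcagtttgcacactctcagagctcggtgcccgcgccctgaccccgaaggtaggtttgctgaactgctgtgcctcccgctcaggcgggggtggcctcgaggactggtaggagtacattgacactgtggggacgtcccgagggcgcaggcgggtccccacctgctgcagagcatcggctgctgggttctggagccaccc
Gfi1b: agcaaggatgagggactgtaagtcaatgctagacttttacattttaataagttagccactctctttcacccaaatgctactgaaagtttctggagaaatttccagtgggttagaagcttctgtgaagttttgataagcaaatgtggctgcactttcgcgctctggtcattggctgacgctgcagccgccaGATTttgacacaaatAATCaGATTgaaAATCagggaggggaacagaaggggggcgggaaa

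The Gfi1b sequence held 4 AATC matches on either strand, which lie close together near its end, and the Gfi1 sequence held 1. A further RefSeq start of Gfi1 had 0. At least 1 match was found in 69.0% of 32851 promoter stretches of the same length, and 93.0% of them held fewer than 4. The longer string AAATCA was present in Gfi1b and in 12.4% of all stretches, and absent from both Gfi1 stretches. TGATAA, a form of the site read by GATA factors, was likewise found in Gfi1b, against 7.94% of all stretches, and ATTGG, the reverse of the CCAAT box, in Gfi1b against 33.8%. The E-box CACGTG read by Myc was found in none of the 3 stretches and in 6.02% of all. The base composition also differed, with 59.2% GC and 13 CpG in the Gfi1 sequence and 44.4% GC and 5 CpG in that of Gfi1b, beside medians of 52.4% and 6. Of all stretches, 22.1% had a lower GC share than Gfi1b, and the shares with a match were not adjusted for base composition. A match is a string of letters and not a bound site.

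In Cas9 tumour cells the Gfi1 window held a single H3K27me3 island, and in the Ezh2 knockout no H3K27me3 was called there. The island spanned chr5:108146001-108157600, a length of 11.6 kb, and covered 14.5% of the window. It was longer than 93.8% of the 14107 islands of its list and ranked 683 by the authors' score, whose meaning the files do not state. Its score per kb was 21.6 against a list median of 14.9, and it exceeded 77.7% of the 1672 islands within 1.5 times its length. It stood alone: the nearest other island lay 282.4 kb away, a distance reached by 5.14% of islands, while the median distance was 4.80 kb. In the knockout the nearest H3K27me3 islands began or ended 1.13 Mb before and 1.75 Mb after the window. When the genome was cut into adjacent tiles of 80 kb, 19.6% held H3K27me3 of Cas9 cells and 9.14% held that of the knockout. In Cas9 cells 94.1% of all tiles, and 69.9% of those with H3K27me3, were covered less than the Gfi1 window. Of the tiles with H3K27me3 in Cas9 cells, 74.4% held 0 islands in the knockout. Loss of the call was thus the usual outcome, and 88.1% of all Cas9 islands and 79.2% of those of like length were not overlapped in the knockout.

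**Figure D1:**
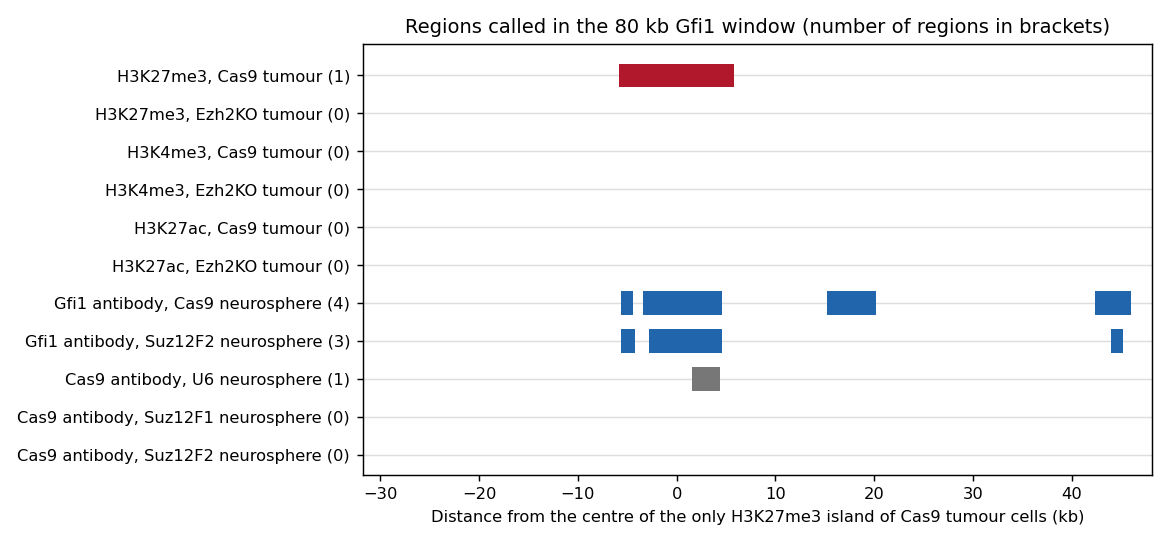
Regions called at Gfi1 in each of the 11 lists (rows, with the number of regions in brackets) against distance in kb from the centre of the H3K27me3 island. The H3K27me3 island of Cas9 cells, the larger Gfi1 antibody islands and the Cas9 antibody island of U6 cells lie over each other, and the rows of H3K4me3 and H3K27ac are empty.

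No peak of H3K4me3 or H3K27ac was called in the Gfi1 window in either kind of tumour cell. The nearest H3K4me3 peaks stood 92.8 kb before and 97.3 kb after the window in Cas9 cells, and the nearest H3K27ac peaks 93.4 kb and 97.5 kb. The knockout distances were 92.9 kb and 97.4 kb for H3K4me3 and 93.0 kb and 97.4 kb for H3K27ac, and both flanking positions carried both marks in both kinds of cell. Of the 80 kb tiles, 23.7% held an H3K4me3 peak of Cas9 cells and 24.1% one of the knockout, and 16.0% and 19.4% held an H3K27ac peak. Where the tile had lost H3K27me3, 43.2% held no peak of these lists. Thus H3K27me3 was no longer called at Gfi1 without a promoter or enhancer mark being called in its place. Among the 12427 islands called in Cas9 cells alone, 86.2% likewise held no H3K4me3 or H3K27ac peak of Cas9 or knockout cells, 87.2% held no H3K4me3 peak of the knockout and 94.5% no H3K27ac peak of it. Among islands of like length, 1029 of 1672, or 61.5%, were both absent from the knockout and free of peaks. The regions of the tumour lists are numbered, and the numbers run through both windows with 0 missing, so that no region of these 6 lists was left out of what was analysed here.

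In neurospheres the Gfi1 antibody gave islands at the Gfi1 locus in both kinds of cell, over the same stretch that carried H3K27me3 in the tumour. Such islands were widespread, with 367.9 Mb covered by the Cas9 list and 294.0 Mb by the Suz12F2 list. The covered share of the Gfi1 window exceeded 56.9% and 54.5% of the 80 kb tiles that held an island, and 77.7% and 75.4% of all. In Cas9 neurospheres an island of 8.00 kb lay at chr5:108148401-108156400, with a smaller one of 1.20 kb at chr5:108146201-108147400. In Suz12F2 neurospheres the matching islands lay at chr5:108149001-108156400, 7.40 kb, and chr5:108146201-108147600, 1.40 kb. The larger islands end at the same base. By score per kb, the larger island exceeded 94.9% of the islands of like length in the Cas9 list and 98.6% in the Suz12F2 list. The remaining islands of the window exceeded 49.0%, 38.3% and 41.3% in Cas9, and 78.2% and 74.5% in Suz12F2. Together the larger and smaller islands covered 79.3% and 75.9% of the tumour H3K27me3 island, close to the medians of 85.1% and 72.4% over islands of like length.

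Beyond that stretch the Gfi1 antibody lists differed. Cas9 neurospheres had an island of 5.00 kb at chr5:108167001-108172000 that Suz12F2 neurospheres lacked, and one of 3.60 kb at chr5:108194201-108197800, of which 1.20 kb, chr5:108195801-108197000, was called in Suz12F2. At least 1 island was present in 51.9% of 80 kb tiles for Cas9 and 54.1% for Suz12F2. So 3 of 4 Cas9 islands and 3 of 3 Suz12F2 islands overlapped the other list, where 23.9% of all Cas9 islands and 18.6% of all Suz12F2 islands do not. The covered length was 17.8 kb in Cas9 and 10.0 kb in Suz12F2 neurospheres, a ratio of 0.562, of which 8.60 kb and 1.20 kb lay outside the tumour H3K27me3 island. Over 15410 tiles of 80 kb with both lists the median ratio was 0.817, and 22.6% of tiles were lower, so the ratio at Gfi1 lay just under the lower quartile of 0.587.

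The Cas9 antibody gave an island at Gfi1 in U6 neurospheres, at chr5:108153401-108156200, and none in Suz12F1 or Suz12F2. It was 2.80 kb long and lay wholly within the tumour H3K27me3 island and within the larger Gfi1 antibody island of both neurosphere kinds. Its score of 11 was below the list median of 12 and ranked 1761 of 2966, so it was among the weaker calls. Tiles of 80 kb held such a region in 8.58% of cases for U6, 2.83% for Suz12F1 and 3.25% for Suz12F2. The larger Gfi1 antibody islands thus overlap a region found with another antibody, and whether they are specific to Gfi1 was not tested. Without islands that overlap a Cas9 antibody region the ratio of covered lengths at Gfi1 was 0.265. Of all U6 regions, 73.8% overlapped Gfi1 antibody islands of Cas9 neurospheres and 25.3% overlapped H3K27me3 islands of Cas9 tumour cells. Conversely, 5.26% of those H3K27me3 islands were overlapped by a U6 region. Further, 13.0% of U6 regions overlapped tumour H3K27me3 with no H3K4me3 peak, as at Gfi1, and 49.2% overlapped an H3K4me3 peak of Cas9 tumour cells.

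Gfi1b carried 2 H3K27me3 islands in Cas9 tumour cells and likewise 0 in the knockout. The islands lay at chr2:28447801-28456200, 8.40 kb, and chr2:28472001-28485200, 13.2 kb, with 15.8 kb between them. Together they covered 36.0% of the window, more than in 97.8% of all 60 kb tiles. Of these tiles, 16.6% held any H3K27me3 of Cas9 cells and 7.52% any of the knockout. Among those with H3K27me3 of Cas9 cells, 87.0% were covered less than the window. The longer exceeded 95.4% of the list in length and ranked 949 by score, and the shorter ranked 2266. Per kb their scores were 15.6 and 14.4, beside the list median of 14.9. These exceeded 31.6% and 38.5% of islands of like length, against 77.7% for the island at Gfi1. In the knockout the nearest H3K27me3 islands lay 0.170 Mb before and 1.85 Mb after the window. Of 60 kb tiles with H3K27me3 in Cas9 cells, 76.6% held 0 knockout islands, and 50.0% of these also lacked active peaks of either kind of cell. Of Cas9 islands of like length, 77.1% for the longer and 85.3% for the shorter were not overlapped in the knockout.

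**Figure D2:**
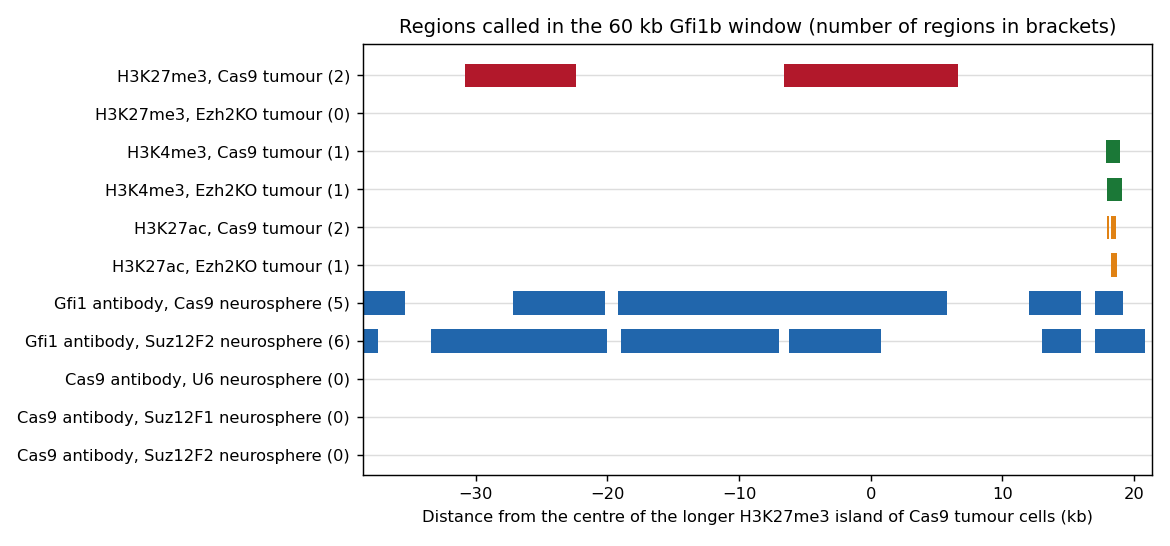
Regions called at Gfi1b in each of the 11 lists (rows, with the number of regions in brackets) against distance in kb from the centre of the longer H3K27me3 island. The H3K27me3 islands are absent from the knockout, while H3K4me3 and H3K27ac are called near the right edge in both kinds of cell, with 2 Cas9 and 1 knockout H3K27ac peaks.

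Active marks were called in the Gfi1b window with and without Ezh2, at 1 place outside the H3K27me3 islands. The H3K4me3 peak lay at chr2:28496493-28497533 in Cas9 cells and chr2:28496514-28497676 in the knockout, 11.3 kb beyond the longer island. It measured 1041 and 1163 bp, of which 1020 bp were shared, and ranked 1086 of 14363 and 1451 of 14417 by score. In the whole lists 14.6% of Cas9 peaks and 9.84% of knockout peaks were called in 1 kind of cell alone. A tile of 60 kb held an H3K4me3 peak in 19.5% and 19.7% of cases, and an H3K27ac peak in 12.8% and 15.7%. H3K27ac was called within this peak, at chr2:28496542-28496711 and chr2:28496875-28497235 in Cas9 cells and at chr2:28496884-28497309 in the knockout. The longer Cas9 peak was matched in the knockout and the shorter, with 170 bp and a score of 12.48, was not. The share of H3K27ac peaks called alone was 8.62% in the Cas9 list and 28.1% in the knockout list. Neither H3K4me3 peak overlapped H3K27me3, an overlap found for 12.5% of the Cas9 list and 2.05% of the knockout list, and 0 peaks of either active mark lay in the H3K27me3 islands in either kind of cell. Which gene's start this peak marks was not determined. Tsc1 follows Gfi1b in gene order, so the peak need not belong to Gfi1b.

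The Gfi1 antibody covered most of the Gfi1b window in both neurosphere kinds. In Cas9 neurospheres 5 islands covered 41.4 kb, or 69.0% of the window, more than in 93.3% of all tiles. In Suz12F2 neurospheres 6 islands covered 40.4 kb, or 67.3%, more than in 95.6% of all tiles. Of the tiles that held an island of the list, 86.2% and 91.1% were covered less. A tile of 60 kb held any such island in 48.2% and 49.6% of cases. All 11 islands overlapped the other list, and 32.4 kb was covered in both. Overlap was the usual outcome, since 23.9% of all Cas9 islands and 18.6% of all Suz12F2 islands lacked it. The ratio of covered lengths was 0.976, above 69.7% of the 18799 tiles with both lists, whose median was 0.825. It has no firm direction, since it was 1.09 when islands within 5 kb of each other were merged.

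The islands were cut differently over the H3K27me3 islands of the tumour. In Cas9 neurospheres the longest of those lying wholly in the window ran over 25.0 kb at chr2:28459401-28484400 and covered most of the space between the H3K27me3 islands and most of the longer one. In Suz12F2 neurospheres that stretch held chr2:28459601-28471600 and chr2:28472401-28479400, which break 0.800 kb apart near the start of the longer H3K27me3 island and end 5.00 kb earlier. The longer H3K27me3 island was thus covered over 93.9% in Cas9 and 53.0% in Suz12F2 neurospheres. The shorter went the other way, with 57.1% in Cas9 from chr2:28451401-28458400 and 100.0% in Suz12F2 from chr2:28445201-28458600. Over islands of like length the medians in Cas9 and Suz12F2 were 85.7% and 73.8% for the longer, and 82.9% and 68.3% for the shorter. The longer was covered more than 68.7% and 27.3% of such islands, and the shorter more than 28.1% and 83.3%, so these values were not unusual. The break of 0.800 kb is little wider than the 600 bp gap of the island lists. Near the promoter marks, chr2:28490601-28494600 and chr2:28495601-28497800 in Cas9 had counterparts at chr2:28491601-28494600 and chr2:28495601-28499400 in Suz12F2. The islands from 28495601 contained the tumour H3K4me3 and H3K27ac peaks whole, and that of Cas9 neurospheres had a higher score per kb than 98.0% of islands of like length. Of all H3K4me3 peaks of Cas9 tumour cells, 86.4% overlapped Gfi1 antibody islands of Cas9 neurospheres by at least 1 bp, and 97.5% those of Suz12F2 neurospheres. The Cas9 antibody gave 0 regions at Gfi1b in U6, Suz12F1 and Suz12F2, against 6.67%, 2.16% and 2.48% of tiles with one.

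**Figure D3:**
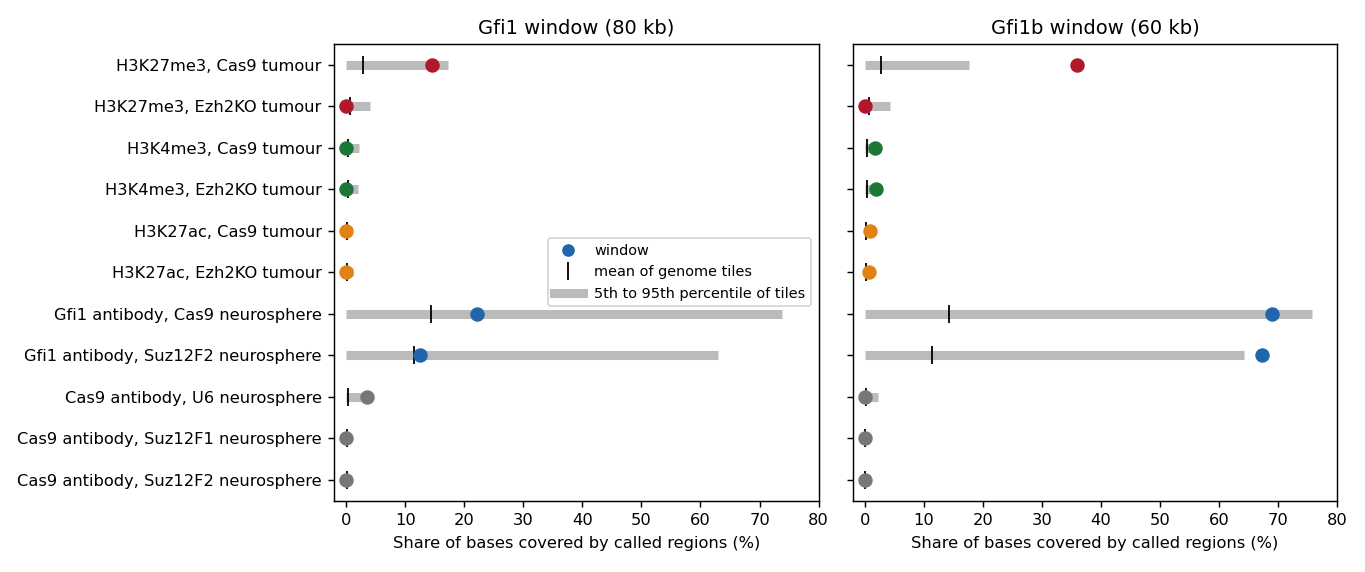
Share of bases covered by called regions in each list (rows) at Gfi1 (left) and Gfi1b (right), as points, with the mean (tick) and the 5th to 95th percentile (grey) of adjacent genome tiles of the same length. H3K27me3 of Cas9 cells covered 14.5% at Gfi1, within the tile range, and 36.0% at Gfi1b, above it. Also above the tile range were the Gfi1 antibody of Suz12F2 neurospheres at Gfi1b, with 67.3%, and the Cas9 antibody of U6 neurospheres at Gfi1, with 3.50%. For the latter, 8.58% of tiles held any region, and 64.4% of these were covered less than the Gfi1 window.

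The loci lay in different neighbourhoods. In the 500 kb before and after Gfi1, H3K27me3 of Cas9 tumour cells covered 3.52% and 0%, against 14.5% in the window. Around Gfi1b it covered 23.0% and 40.2%, against 36.0% in the window, so that the Gfi1b islands belong to a stretch rich in the mark. The flanks of Gfi1 held 4 H3K27me3 islands and those of Gfi1b held 49, and 0 of either were overlapped in the knockout. In the knockout 2 of the 4 and 3 of the 49 held an H3K4me3 or H3K27ac peak. Over the whole list 88.1% of islands were not overlapped in the knockout. Of these, 87.2% held no H3K4me3 peak of the knockout and 94.5% no H3K27ac peak of it. The Gfi1 antibody followed the same order: in Cas9 neurospheres it covered 8.28% and 4.72% of the flanks of Gfi1 and 22.2% of its window, and 85.1% and 69.9% of the flanks of Gfi1b beside 69.0% of its window. In Suz12F2 neurospheres the values were 6.84%, 5.12% and 12.5% at Gfi1 and 71.9%, 53.6% and 67.3% at Gfi1b. Coverage by both H3K27me3 and the Gfi1 antibody was therefore higher in the window than in either flank at Gfi1, and not at Gfi1b.

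**Figure D4:**
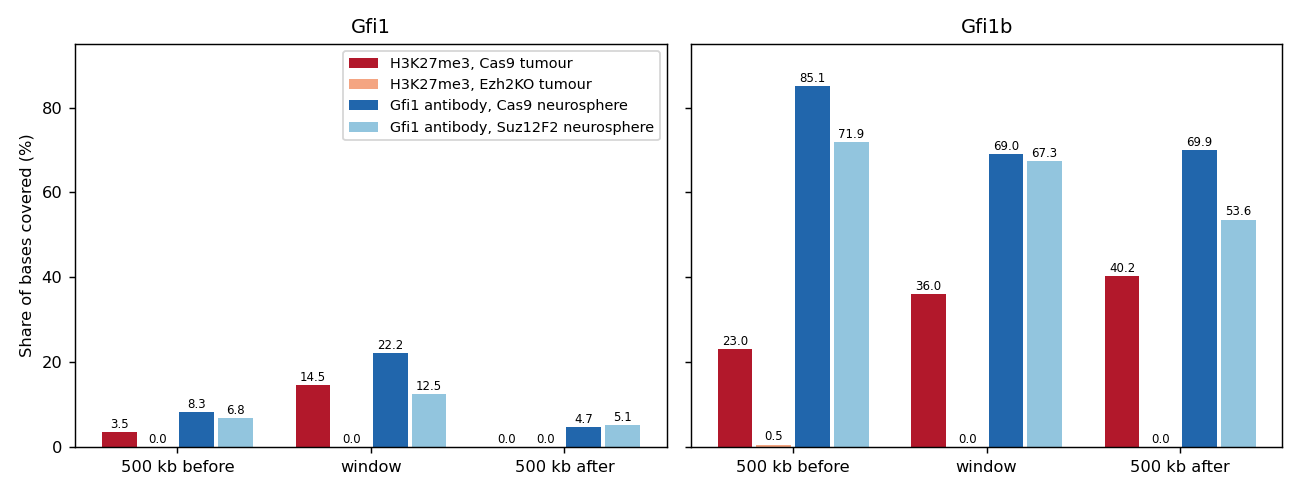
Share of bases covered (bars, in percent) in the window and in the 500 kb before and after it, for H3K27me3 in tumour cells and the Gfi1 antibody in neurospheres. At Gfi1 each list with calls peaks in the window, with 14.5% for H3K27me3 of Cas9 cells, while at Gfi1b a flank is covered more widely than the window, with 40.2% after it against 36.0% for H3K27me3 of Cas9 cells and 85.1% before it against 69.0% for the Gfi1 antibody of Cas9 neurospheres.

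The 3 H3K27me3 islands of both loci shared 1 combination of calls: present in Cas9 tumour cells, absent from the knockout, free of active-mark peaks from Cas9 and knockout cells alike, and overlapped by the Gfi1 antibody in both neurosphere kinds. Singly, 79.8% and 75.4% of H3K27me3 islands were overlapped in Cas9 and Suz12F2 neurospheres. This combination was common, with 6935 of 14107 islands, or 49.2%. Adding the Cas9 antibody region of U6 neurospheres, which Gfi1 had and Gfi1b lacked, left 143 islands, or 1.01%. This small share follows from the rarity of U6 regions, which 5.26% of all H3K27me3 islands held. The combination was put together from the calls at these loci, and the U6 call at Gfi1 scored 11, below its list median of 12. The tumour and neurosphere lists come from different cells, and H3K27me3 of the neurospheres was not analysed here.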

How the data were processed

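The authors called each of the 11 region lists from 1 library. Input libraries, 3 in all, were left out. The neurosphere input is labelled U6, and there is none labelled Suz12F2. The submitters' processing notes name SICER 1.1, BWA 0.5.9-r26, SAMtools, Picard and R 2.14.0 with build mm9, and give no role for any. The 7 lists of H3K27me3 and of the neurospheres hold islands, with window 200 bp, gap 600 bp and false discovery rate 0.00001 per the names of the deposited files, and 1 bp was added to the end coordinate of each island. The 4 other lists hold narrow peaks, from a caller that no source used here gives. Each region has a score deposited by the authors, used within 1 list alone.

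Groups were taken from the titles. Window limits came from the rule that defines the loci, and the rule for naming was to account for every region in them. The members and lists were chosen with earlier results of these data known. Overlap meant 1 bp or more. Tiles were adjacent stretches of the window's length from the lowest to the highest base in any list, on the autosomes, X and Y. Islands of like length lay within 1.5 times a member's length. This comparison and the distance to the nearest island were chosen after seeing the data. Work used Python 3.11.15, numpy 2.4.6 and matplotlib 3.10.9, and overlaps were compared with those of bedtools 2.31.1 for 110 pairs of lists, of which 0 differed. Gene order and sequences came from RefSeq, which matched 2 of 2 genes. The pathway genes and cell type markers planned for comparison were not used, since placing them needs an mm9 annotation. With 1 library per group no test was possible. Alternatives were the upper 50% of scores, 50% overlap, windows widened by 50 kb, lists of equal number, merging within 5 kb and removal of Cas9 antibody regions.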

Additional observations from a re-analysis of the deposited data

How the results depend on the processing

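Absence of H3K27me3 from the knockout was unchanged at both loci under 5 alternatives. These were the upper 50% of scores, wider windows, 50% of a region inside the window, equal list lengths and merging within 5 kb. Absence of H3K4me3 and H3K27ac peaks at Gfi1 was likewise unchanged under 5 alternatives, which had 50% cover of a peak in place of merging. None of these settings could have changed either absence, so they do not measure how firm it is. Apart from widening, they only remove or join calls. Widening reached 50 kb, while the nearest knockout H3K27me3 island lay 169.6 kb from a window and the nearest active peak 92.8 kb from that of Gfi1.

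In the upper 50% of scores, the Gfi1 antibody kept 2 regions at Gfi1 in Cas9 and 1 in Suz12F2 neurospheres, and the Cas9 antibody of U6 cells 0. At Gfi1b, H3K27ac then had 0 peaks in Cas9 cells, with 0 in Cas9 cells alone, 0 in both and 1 in the knockout alone. With windows widened by 50 kb, Gfi1 held 5 Gfi1 antibody regions of Suz12F2 neurospheres. At Gfi1b the widened window held 9 Gfi1 antibody regions in Cas9 and 11 in Suz12F2 neurospheres, 3 Cas9 and 2 knockout H3K4me3 peaks, of which 2 were in both and 1 in Cas9 cells alone, and 2 H3K27ac peaks in the knockout, with 2 in both. The ratio of Gfi1 antibody lengths was 0.265 at Gfi1 without Cas9 antibody regions and 1.09 at Gfi1b after merging within 5 kb. Calls lost in the upper 50% scored below the medians of their lists, and wider windows took in further regions. The ratio of 0.265 leaves out the larger Gfi1 antibody islands, which overlap the U6 region. Merging filled gaps of up to 5 kb between islands. No further cause was tested.

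No paired analysis was possible because every group held 1 library. Leaving out a library was likewise not possible. The lists hold called regions alone, so a signal under the authors' threshold is not seen.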

Other observations

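A long Gfi1 antibody domain lay at the lower edge of the Gfi1b window in both lists. In Cas9 neurospheres it ran from chr2:28364801-28443200, so that its last 3200 bp fell in the window. It was 78.4 kb long and ranked 27 of 63177 by score, which grows with length. Its score per kb exceeded that of 79.3% of the 140 islands of like length. In Suz12F2 neurospheres the domain began at the same base and ended at 28436400, a length of 71.6 kb, with rank 25 of 67079. A separate island of 3.60 kb, chr2:28437601-28441200, followed it and crossed the edge of the window.

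An active promoter call stood 1.25 kb before the Gfi1b window in Cas9 tumour cells, with H3K4me3 at chr2:28438024-28438754 and H3K27ac at chr2:28438265-28438713. In the knockout the peaks were at chr2:28437976-28438536 and chr2:28438080-28438544. Both marks were thus called at both edges of the Gfi1b window in both kinds of tumour cell, and the H3K27me3 islands of Cas9 cells lay between them. The genes that these peaks belong to were not determined. On chromosome 5, a Gfi1 antibody island of 1.80 kb at chr5:108116801-108118600 lay 1.40 kb before the Gfi1 window in Suz12F2 neurospheres, while the nearest one of Cas9 neurospheres on that side lay 155.6 kb away. It ranked 29508 of 67079 by score, and 18.6% of all Suz12F2 islands were not overlapped in the Cas9 list.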
